A study of Mus musculus with 6 samples.

Results

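Tyrobp, Fcer1g and the Fc receptors of myeloid cells were followed in brown adipose tissue that had lost seipin in its brown adipocytes. The genes were chosen by symbol as 7 names, Tyrobp, Fcer1g, Fcgr1, Fcgr2b, Fcgr3, Fcgr4 and Gp49a, and 6 of them were found among the 12966 genes of the table. Fcgr1, the high affinity receptor for immunoglobulin G, was not analysed here. The names were put forward with the BKO and Ctrl levels of these genes known. Their levels and differences are therefore given as a description, without a test.

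RNA was sequenced from brown fat of male C57BL/6J mice at 10 weeks of age. The Ctrl group (3 libraries) was Bscl2f/f, with both alleles of the seipin gene floxed and no Cre. The BKO group (3 libraries) was Bscl2f/f Ucp1Cre, in which a Ucp1 promoter drives Cre in brown adipocytes, so that the other cells of the tissue keep the gene. Only BKO mice carried Cre, so the transgene and the loss of Bscl2 cannot be told apart, and separate animals are not stated, so the spread between libraries may be technical.

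Tyrobp (also called DAP12) and Fcer1g (the Fc receptor gamma chain) are small membrane adaptors. Each carries an immunoreceptor tyrosine-based activation motif (ITAM), and each lends it to receptors whose own cytoplasmic tails cannot signal. When such a receptor binds its ligand, Src family kinases phosphorylate the motif and the kinase Syk docks on it. Fcgr3 and Fcgr4 bind the Fc part of immunoglobulin G and signal through Fcer1g. Fcgr2b binds the same ligand but carries an inhibitory motif (ITIM), which recruits the lipid phosphatase Inpp5d. Gp49a is an immunoglobulin-like receptor of macrophages and mast cells without an ITIM, and Lilrb4 is its inhibitory neighbour. In adipose tissue these genes are known mainly from macrophages, although natural killer cells, neutrophils and mast cells use the adaptors too.

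The bases just before the start of transcription are shown for 4 of the genes, because genes of these cells often carry sites for the myeloid factor PU.1 there. The sequences are from RefSeq on GRCm38.p6, a later build than the authors' NCBIM37, and each ends at the base before the start site. RefSeq's table matched 6 of the 7 names, with Gp49a under its present symbol Lilr4b, and had no entry for Tyrobp. Capitals mark every GAGGAA or AGGAAG on either strand, 2 words that overlap each other by 5 bases.
Fcgr3, chr1:171059404-171059523, minus strand: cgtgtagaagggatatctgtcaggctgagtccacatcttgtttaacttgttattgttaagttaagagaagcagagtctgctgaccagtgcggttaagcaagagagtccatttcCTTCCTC
Fcgr4, chr1:171018806-171018925, plus strand: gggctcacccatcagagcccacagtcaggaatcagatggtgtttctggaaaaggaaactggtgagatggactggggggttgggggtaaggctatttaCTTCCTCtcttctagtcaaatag
Fcer1g, chr1:171234350-171234469, minus strand: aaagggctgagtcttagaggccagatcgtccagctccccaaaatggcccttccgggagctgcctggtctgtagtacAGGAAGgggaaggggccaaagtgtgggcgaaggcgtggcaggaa
Gp49a, chr10:51480492-51480611, plus strand: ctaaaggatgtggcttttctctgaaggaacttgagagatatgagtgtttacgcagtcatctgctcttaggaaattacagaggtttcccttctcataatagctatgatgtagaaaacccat
Fcgr3 and Fcgr4 held both words in the same place, as 1 run that reads CTTCCTC on the strand shown. It ended 0 bases before the Fcgr3 start and 16 bases before the Fcgr4 start. RefSeq listed 2 starts for Fcgr3, and only the first of them was examined. Fcer1g held AGGAAG alone, 38 bases before its start. In the 250 bases before the start, neither word was found in Gp49a or Fcgr2b, while Fcgr1 held both. Of 27025 promoters of that length, 23.1% held GAGGAA, 29.2% held AGGAAG and 39.0% held either, so these words are common.

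The values were FPKM, which scale fragments to the length of the transcript and to all mapped fragments, so levels can be set side by side between genes. Reads per library are not in the table. Non-zero estimates go down to 2.16e-227 FPKM, so the depth could not be recovered from the low values either. BKO-3 stood apart. Its values summed to 2808874 FPKM against 1119228 to 1617963 in the other libraries, and to 641756 against 561151 to 614306 once mitochondrial tRNA genes and Ighj4 were left out. BKO-3 also held no value between 0 and 0.486 FPKM, where the other libraries held 341 to 632 values. A gene below that level in BKO-3 was therefore not listed unless it stood at 0. The targeted gene Bscl2 stood at 116, 104 and 106 FPKM in the Ctrl libraries numbered 1, 2 and 3, and at 16.5, 16.9 and 18.9 FPKM in those of BKO, low in every library labelled BKO. Across the 11397 genes that averaged 1 FPKM or more, 18 were higher and 1, Bscl2, was lower in BKO at a Benjamini-Hochberg adjusted p below 0.05 (limma). This filter takes the mean of all 6 libraries, so a gene can pass it through 1 group alone.

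Both adaptors stood higher in all 3 BKO libraries than in any Ctrl library. In the order of the library numbers, which holds below too, Tyrobp measured 7.03, 4.79 and 5.18 FPKM in Ctrl, against 13.9, 14.5 and 11.9 FPKM in BKO. The groups did not overlap, and the lowest BKO library was 1.69 times the highest Ctrl library. The mean was 5.67 ± 1.20 FPKM in Ctrl and 13.4 ± 1.38 FPKM in BKO (SD, n = 3 per group), a difference of 1.13 on the log2(FPKM + 1) scale (SE 0.139). This scale understates the change of genes with low values. In bulk tissue, more cells that express a gene and more of its RNA per cell cannot be told apart.

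Fcer1g measured 7.69, 5.17 and 4.15 FPKM in the Ctrl libraries and 11.6, 12.9 and 10.0 FPKM in the BKO libraries. The groups did not overlap either, with Ctrl-1 closest to the BKO libraries. The means were 5.67 ± 1.82 and 11.5 ± 1.42 FPKM (SD, n = 3 per group), a ratio of 2.03 and a log2 difference of 0.93 (SE 0.190).

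The 2 adaptors were present at like levels. Tyrobp divided by Fcer1g gave 0.914, 0.927 and 1.25 in the Ctrl libraries and 1.21, 1.13 and 1.18 in the BKO libraries. The ratio overlapped between the groups because Ctrl-3, with the lowest Fcer1g value, had the highest ratio. Such a ratio within a library does not depend on how the library was scaled.

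Among the receptors for immunoglobulin G, the inhibitory Fcgr2b and the activating Fcgr3 were each about 2 times as high in BKO, while Fcgr4 overlapped between the groups. Fcgr2b measured 3.35, 2.52 and 1.51 FPKM in Ctrl and 4.32, 4.20 and 5.03 FPKM in BKO. All BKO libraries lay above all Ctrl libraries, with Ctrl-3 the lowest. Its means were 2.46 ± 0.920 and 4.51 ± 0.447 FPKM (SD, n = 3 per group), a ratio of 1.84 and a log2 difference of 0.71 (SE 0.193). That difference was 0.49 without Ctrl-3 and 0.89 without Ctrl-1, so it leaned on single Ctrl libraries more than that of Tyrobp, which lay between 1.03 and 1.27 with any 1 library left out.

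Fcgr3 measured 2.86, 2.04 and 1.77 FPKM in Ctrl and 4.97, 4.06 and 5.61 FPKM in BKO, again without overlap. Its means were 2.23 ± 0.568 and 4.88 ± 0.780 FPKM (SD, n = 3 per group), a ratio of 2.19 and a log2 difference of 0.87 (SE 0.155). Its highest value was in BKO-3, the library that stood apart, and the difference was 0.78 without it.

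Fcgr4, the receptor of monocytes and macrophages for IgG2 subclasses, measured 1.29, 0.681 and 0.692 FPKM in Ctrl and 0.760, 1.11 and 1.15 FPKM in BKO. Ctrl-1 held the highest value of all 6 libraries. The means were 0.889 ± 0.351 and 1.01 ± 0.214 FPKM (SD, n = 3 per group), and the log2 difference of 0.10 (SE 0.152) was smaller than its error. With a mean of 0.948 FPKM over the 6 libraries it fell below the filter, and its error comes from the fit without a filter. Without Ctrl-1 the difference was 0.25.

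Gp49a showed the largest ratio of the 6 genes. It measured 1.10, 0.546 and 0.612 FPKM in Ctrl and 3.82, 3.45 and 2.35 FPKM in BKO, and its lowest BKO library was 2.14 times its highest Ctrl library. The means were 0.752 ± 0.302 and 3.21 ± 0.761 FPKM (SD, n = 3 per group), a ratio of 4.26 and a log2 difference of 1.26 (SE 0.177). Part of its transcript is shared with Lilrb4. Of the 50-base windows of Gp49a's coding transcripts in GENCODE vM21, 24.1% also occur in Lilrb4, so reads could have been split between these genes. In turn, 94.5% of Lilrb4's windows occur in other genes, and 92.5% occur in Gm49339, so its own level may be uncertain. Whether the authors' annotation held these genes in the same form is not known. Lilrb4 measured 0.576, 0.558 and 0.378 FPKM in Ctrl and 2.197, 2.35 and 1.34 FPKM in BKO, so both genes were lowest in BKO-3 among the BKO libraries. The ratio of Gp49a to Lilrb4 was 1.50 ± 0.477 in Ctrl and 1.65 ± 0.160 in BKO (SD, n = 3 per group), with overlapping groups. Fcgr3 shares 10.2% of its windows with Fcgr2b, a smaller overlap, and Tyrobp, Fcer1g and Fcgr4 share 0% with any other gene's coding transcripts.

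**Figure D1:**
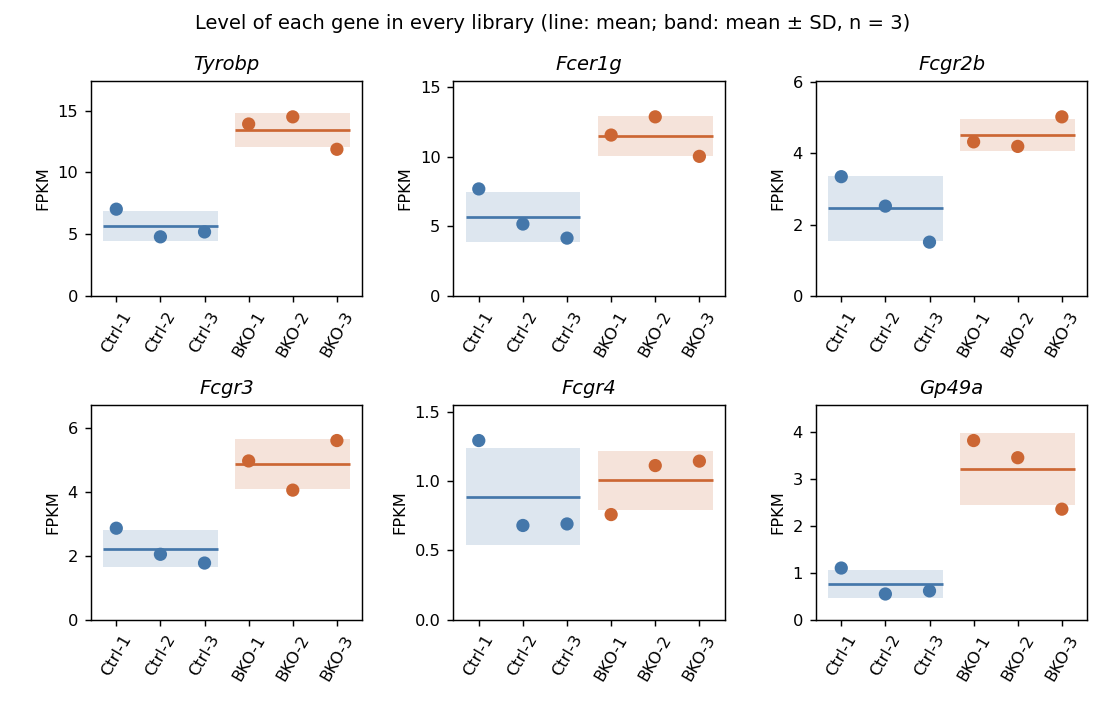
FPKM of the 6 genes in each library (points), with the mean of each group as a line and mean ± SD as a band (n = 3 per group). Fcgr4 is the gene whose groups overlap, and Ctrl-1 is the highest Ctrl library in all 6 panels.

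In all, 5 of the 6 listed genes had every BKO library above every Ctrl library, which 9.06% of all genes tested also had, while 6.82% had the reverse. Of the 5 that passed the filter, 1, Tyrobp, was past the limma threshold in the higher direction, against 0.158% of all genes tested. None was past it in the lower direction, against 0.00877%. Since the genes were chosen on this contrast, nothing is read from either count. Tyrobp did not pass when Ctrl-2, Ctrl-3, BKO-1, BKO-2 or BKO-3 was left out, nor with no filter or a filter at 5 FPKM, so it passed in 7 of 14 alternatives. Gp49a, which averaged 0.752 FPKM in Ctrl and reached the filter only through its BKO level, passed without BKO-3.

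The levels had a similar order in both groups. In Ctrl, Fcer1g and Tyrobp led at 5.67 FPKM each, followed by Fcgr2b (2.46), Fcgr3 (2.23), Fcgr4 (0.889) and Gp49a (0.752). The libraries of Fcer1g and Tyrobp overlapped, as did those of Fcgr2b and Fcgr3 and those of Fcgr4 and Gp49a. In BKO the order was Tyrobp (13.4), Fcer1g (11.5), Fcgr3 (4.88), Fcgr2b (4.51), Gp49a (3.21) and Fcgr4 (1.01), and Gp49a no longer overlapped with Fcgr4. Tyrobp stood above 49.0% of the listed genes in Ctrl and above 71.1% in BKO, and Gp49a above 8.97% and 34.2%.

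The balance of activating to inhibitory receptors for immunoglobulin G overlapped between the groups. The summed FPKM of Fcgr3 and Fcgr4 divided by that of Fcgr2b was 1.24, 1.08 and 1.63 in Ctrl and 1.33, 1.23 and 1.34 in BKO. The means were 1.32 ± 0.283 and 1.30 ± 0.0597 (SD, n = 3 per group), and Ctrl-2 and Ctrl-3 bounded all other libraries. Within the sum of the 3 receptors, the share of Fcgr2b was 43.5% ± 5.10 in Ctrl and 43.5% ± 1.14 in BKO. The share of Fcgr4 was 17.3%, 13.0% and 17.4% in Ctrl and 7.56%, 11.9% and 9.73% in BKO, with no overlap. That of Fcgr3 was 40.6% ± 3.50 and 46.8% ± 3.15 (SD, n = 3 per group), with overlap. The sum of these 3 receptors divided by Fcer1g, the chain that Fcgr3 and Fcgr4 need, was 0.983 ± 0.0299 in Ctrl and 0.924 ± 0.228 in BKO, and BKO-3 was the highest at 1.17.

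Within the Ctrl group 1 library was the highest for every gene, while the order of the others varied. Ctrl-1 was the highest Ctrl library for 6 of 6 genes, and the lowest was Ctrl-2 for 3 and Ctrl-3 for 3. Ctrl-1 was also the highest Ctrl library for the summed macrophage markers, at 99.3 FPKM against 65.7 and 61.7, and for the summed pan-leukocyte genes, at 34.2 against 22.9 and 15.5. Its summed skeletal muscle markers stood at 482 FPKM, against 70.2 and 122 in the other Ctrl libraries and 103 to 308 in BKO, and the part of this in the results was not tested. In the BKO group no library led in this way. BKO-3 was the highest for 3 genes (Fcgr2b, Fcgr3 and Fcgr4) and the lowest for the other 3.

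Set against other leukocyte genes of the same library, the direction of 4 of the 6 genes depended on what they were divided by. Of 18 macrophage markers, 17 were listed and none of these was at 0 in all 6 libraries. Their sum was 61.7 to 99.3 FPKM in Ctrl and 182 to 245 FPKM in BKO, with Lyz2, the lysozyme of macrophages, making up 31.2%, 31.0% and 32.5% of it in Ctrl and 39.4%, 37.0% and 43.1% in BKO, a higher share in every BKO library. Pan-leukocyte genes such as Ptprc, the gene of CD45, summed to 15.5 to 34.2 FPKM in Ctrl and 35.3 to 39.0 FPKM in BKO. The macrophage sum was 2.81 times and the leukocyte sum 1.51 times as high in BKO.

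Tyrobp equalled 7.59% ± 0.712 of the macrophage sum in Ctrl and 6.38% ± 0.615 in BKO, but 24.9% ± 7.29 and 36.7% ± 3.61 of the leukocyte sum (SD, n = 3 per group). Fcer1g went from 7.45% ± 0.623 to 5.46% ± 0.697 of the former and from 23.9% ± 2.43 to 31.4% ± 4.12 of the latter. Fcgr2b and Fcgr3 had BKO over Ctrl ratios of 0.676 and 0.795 against the macrophage sum, with overlap for both. Against the leukocyte sum the ratios were 1.22, without overlap, and 1.39, with overlap. The shares of Tyrobp and Fcer1g did not overlap between the groups with either divisor. With Lyz2 left out of the macrophage sum, the share of Tyrobp did overlap, at 11.1% ± 1.18 and 10.6% ± 1.09, while that of Fcer1g did not, at 10.9% ± 0.788 and 9.07% ± 1.11 (SD, n = 3 per group). For Gp49a and Fcgr4 the direction was the same with both divisors. Gp49a equalled 1.11%, 0.831% and 0.993% of the macrophage sum in Ctrl and 1.56%, 1.64% and 1.30% in BKO, so all BKO libraries were above all Ctrl libraries. Fcgr4 equalled 1.30%, 1.04% and 1.12% in Ctrl and 0.311%, 0.529% and 0.631% in BKO, so all were below. Against the leukocyte sum the ratio was 2.74 for Gp49a, without overlap, and 0.742 for Fcgr4, with overlap.

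**Figure D2:**
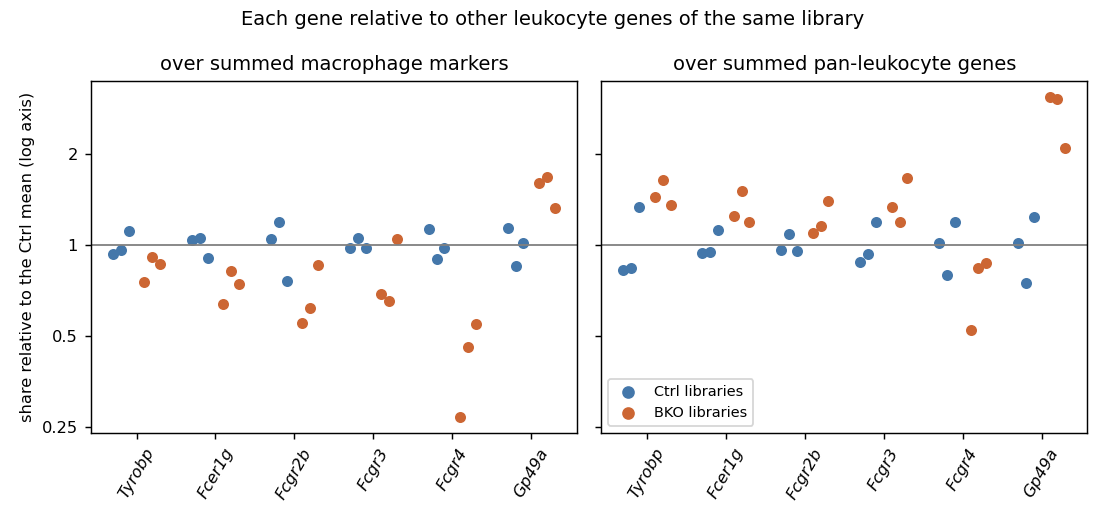
Each gene divided by the summed macrophage markers (left) or summed pan-leukocyte genes (right) of its library, relative to the Ctrl mean of that share, on a log axis. Each point is 1 library. Gp49a lies above 1 in all BKO libraries in both panels, whereas Tyrobp and Fcer1g lie below 1 on the left and above 1 on the right.

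Receptors that signal through the adaptors were mostly not listed, and those listed were low. Of 17 receptors known to signal through Tyrobp, 3 were listed, all with a mean below 1 FPKM and so not tested. Trem2, a lipid-sensing receptor of macrophages and microglia, measured 0.378, 0.117 and 0.0378 FPKM in Ctrl and 1.63, 1.78 and 1.32 FPKM in BKO, without overlap. Klrk1, an activating receptor of natural killer cells, measured 0.495 ± 0.196 and 0.706 ± 0.354 FPKM (SD, n = 3 per group), with overlap. The 3 listed receptors summed to 0.468 to 1.29 FPKM in Ctrl and 3.10 to 3.42 FPKM in BKO. Tyrobp itself stood above the sum of its listed partners in every library.

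Of 17 other receptors that signal through Fcer1g, again 3 were listed and none tested. Clec4n, the fungal receptor Dectin-2, measured 0.665, 0.270 and 0.254 FPKM in Ctrl and 1.25, 0.763 and 0.801 FPKM in BKO. Cd300ld measured 0.450 ± 0.102 and 1.01 ± 0.0486 FPKM (SD, n = 3 per group). In 5 of these 6 receptors the BKO libraries all lay above the Ctrl libraries. Among the 1569 listed genes below a mean of 1 FPKM, 15.0% did so and 2.80% did the reverse, in a listing whose low genes stood at 0 or at 0.486 FPKM and above in BKO-3.

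Downstream of the ITAM, no gene passed the threshold. Of 39 kinases, adaptors and effectors, 32 were listed and 19 tested. None passed in either direction by limma. At an unadjusted p below 0.05, 3 were higher and 0 lower, against 6.63% and 3.52% of all genes tested, shares that apply to the counts at this cutoff below too. All BKO libraries lay above all Ctrl libraries for 4 of the 19 tested and 12 of the 32 listed genes, and the reverse held for 0. Of all genes tested, 9.06% did so and 6.82% did the reverse. Among listed genes below a mean of 1 FPKM the shares were 15.0% and 2.8%, under the limit on low values in BKO-3 given above. Of the 4 tested genes without overlap, Lat2 and Nckap1l averaged 0.931 and 0.843 FPKM in Ctrl and passed the filter only through BKO. Of the tested genes, 16 of 19 differences were positive, and the median log2 difference was 0.05, beside 0.01 and 51.6% positive over all genes tested. Rac1, a small GTPase of actin remodelling, measured 70.6 ± 3.15 and 70.9 ± 2.83 FPKM, and Skap2, an adaptor of integrin signalling, 21.7 ± 1.88 and 21.9 ± 0.868 FPKM (SD, n = 3 per group). Both were named as the most abundant of the list, and their levels in myeloid cells alone were not measured. Syk, the kinase that docks on the phosphorylated motif, was below the filter. It measured 0.587, 0.424 and 0.413 FPKM in Ctrl and 1.07, 0.797 and 1.15 FPKM in BKO, without overlap.

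Of 27 inhibitory receptors and phosphatases, 18 were listed and 13 tested, none passed by limma, and 6 were higher at an unadjusted p below 0.05. The median log2 difference was 0.37, with 11 of 13 positive and 5 of 13 without overlap in the higher direction. Lilrb4 had the largest difference in this list at 0.96 (SE 0.157, limma adjusted p = 0.120), and without BKO-3 it was the 1 member that passed. The 6 and 5 of 13 stand beside 6.63% and 9.06% of all genes tested. Lilrb4, Clec12a and Inpp5d averaged 0.504, 0.629 and 0.875 FPKM in Ctrl and 1.96, 1.81 and 1.43 FPKM in BKO. They thus passed the filter only through their BKO levels, and nothing is read from these counts. The most abundant members belong to other cells as well. Pecam1, the endothelial CD31, measured 30.9 ± 1.44 and 30.5 ± 1.57 FPKM, and Ptpn11, the phosphatase SHP2, 26.3 ± 0.837 and 27.6 ± 2.16 FPKM (SD, n = 3 per group).

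Other Fc receptors and immunoglobulin genes were measured too. Of 11 other Fc receptor genes 3 were listed and tested, none passed by limma, and 1 was higher at an unadjusted p below 0.05 (median log2 difference 0.08). Fcgrt, the neonatal Fc receptor that recycles immunoglobulin G and albumin in many cells, was the most abundant Fc receptor gene, with 112 ± 7.15 FPKM in the Ctrl group and 119 ± 7.55 FPKM in the BKO group. Trim21, a cytosolic antibody receptor, measured 2.25 ± 0.677 and 2.05 ± 0.0857 FPKM (SD, n = 3 per group). Neither of these separated the groups. The third, Fcrls, an Fc receptor-like gene, measured 0.953, 0.696 and 0.715 FPKM in Ctrl and 2.13, 1.75 and 1.32 FPKM in BKO, without overlap (log2 difference 0.60, SE 0.138, limma adjusted p = 0.241). With a mean of 0.788 FPKM in Ctrl, Fcrls passed the filter only through BKO. Of 13 immunoglobulin genes 4 were listed and 3 tested. None passed by limma, and all 3 were higher at an unadjusted p below 0.05, against 6.63% of all genes tested (median 0.68). Igkc, the kappa light chain constant region, measured 3.74, 3.08 and 3.61 FPKM in Ctrl and 6.67, 12.4 and 27.3 FPKM in BKO, so BKO-3 was the highest by far. Ighm, the heavy chain of IgM, measured 3.76, 2.99 and 2.15 FPKM in Ctrl and 7.74, 4.54 and 3.95 FPKM in BKO. Both lay above Ctrl in every BKO library, with adjusted p = 0.248 and 0.416 (limma). Ighg2c, the only heavy chain of immunoglobulin G among the listed genes, had a mean below 1 FPKM and was not tested. It measured 0.139, 0 and 0.0313 FPKM in Ctrl and 0.0598, 0.389 and 1.37 FPKM in BKO, with overlap.

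Regulators of these genes were also not past the threshold. Of 12 myeloid transcription factors 10 were listed and tested, none passed by limma, and the median log2 difference was 0.30. At an unadjusted p below 0.05, 4 were higher, against 6.63% of all genes tested. In 4 of 10 every BKO library lay above every Ctrl library, against 9.06% of all genes tested, and 0 had the reverse, against 6.82%. Sfpi1, the gene of PU.1, was among these, at 1.03, 0.378 and 0.671 FPKM in Ctrl and 1.64, 2.05 and 1.52 FPKM in BKO (log2 difference 0.71, SE 0.163, limma adjusted p = 0.245). So was Irf8, a factor of the monocyte and dendritic lineages, at 1.21, 0.957 and 0.781 FPKM in Ctrl and 2.02, 1.55 and 1.98 FPKM in BKO (log2 difference 0.52, SE 0.125, limma adjusted p = 0.248). Sfpi1 and Irf8 averaged 0.694 and 0.983 FPKM in Ctrl, so both passed the filter only through BKO, and nothing is read from the counts of this list. The most abundant are expressed by adipocytes as well. Cebpb measured 213 ± 34.0 and 267 ± 22.5 FPKM and Cebpa 211 ± 45.0 and 189 ± 22.7 FPKM (SD, n = 3 per group). Of 7 genes of the interferon gamma pathway, which induces Fc receptors in macrophages, 6 were listed and tested and 0 passed by limma, with 0 also at an unadjusted p below 0.05 (median 0.07). Ifngr1, a chain of its receptor, measured 48.7 ± 5.49 and 46.4 ± 6.98 FPKM (SD, n = 3 per group).

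**Figure D3:**
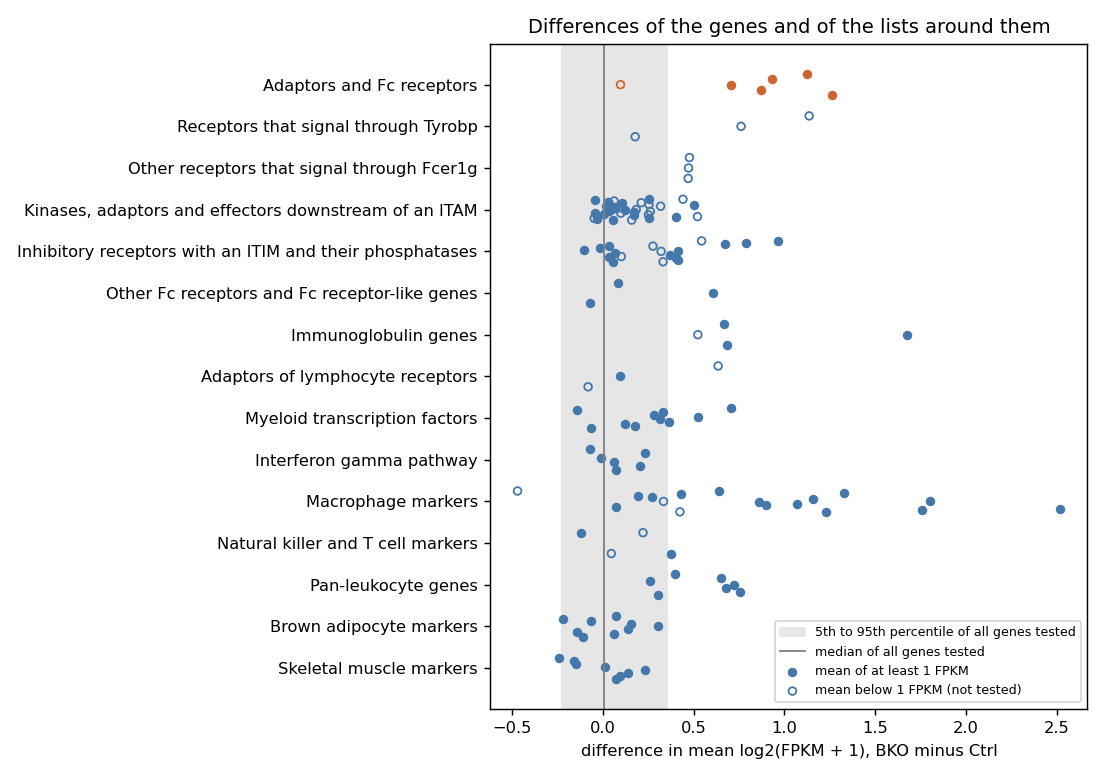
Difference in mean log2(FPKM + 1), BKO minus Ctrl, for the 6 genes (top row) and for each list with at least 3 listed genes. Filled points were tested, open points had a mean below 1 FPKM, and the grey band spans the 5th to 95th percentile of all genes tested (-0.23 to 0.36). The tested adaptors and receptors lie right of the band from 0.71 to 1.26, and Fcgr4 lies inside it.

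Markers of the cells that could carry these transcripts were compared. Of 14 tested macrophage markers 3 passed in the higher direction (Lyz2, Ctss and Ms4a7), against 0.158% of all genes tested, and 11 did not pass. All 14 differences were positive, against 51.6% of all genes tested, and the median log2 difference was 0.98. At an unadjusted p below 0.05 (limma), 12 were higher and 0 lower, against 6.63% and 3.52%. For 11 of the 14 every BKO library lay above every Ctrl library, against 9.06%. Ms4a7, with a mean of 0.573 FPKM in Ctrl, passed the filter only through BKO. Lyz2, Ctss and Ms4a7 had adjusted p = 0.0195, 0.0439 and 0.0439 (limma), and 0 macrophage markers passed when Ctrl-2, Ctrl-3, BKO-1 or BKO-2 was left out. Of the 17 listed macrophage markers, 13 had every BKO library above every Ctrl library, and 1, Cd163, had the reverse. Among listed genes below a mean of 1 FPKM, 15.0% had the former and 2.8% the latter. Cd163, the haemoglobin scavenger receptor of resident macrophages, had a mean below 1 FPKM and was not tested. It measured 1.23, 0.780 and 1.10 FPKM in Ctrl and 0.329, 0.507 and 0.568 FPKM in BKO, so the highest BKO value was under the lowest Ctrl value. All 7 pan-leukocyte genes had a positive difference (median 0.65), against 51.6% of all genes tested. In 4 of the 7 every BKO library lay above every Ctrl library, against 9.06%. None passed by limma, and 4 were higher at an unadjusted p below 0.05. Cd52, a surface antigen of leukocytes, measured 8.30 ± 4.16 and 12.9 ± 0.617 FPKM, and Arhgdib 5.03 ± 0.501 and 6.42 ± 0.426 FPKM (SD, n = 3 per group).

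Of the monocyte markers 2 of 5 were listed, none passed by limma, and 1 was higher at an unadjusted p below 0.05 (median 0.46). Ccr2, the chemokine receptor of recruited monocytes, measured 1.59, 1.07 and 0.593 FPKM in Ctrl and 2.86, 1.82 and 2.78 FPKM in BKO, without overlap. Ly6c2 measured 0.973 ± 0.662 and 1.16 ± 0.502 FPKM (SD, n = 3 per group), with overlap.

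The other cells that use the adaptors were represented by few genes. Listed were 2 of 10 neutrophil markers, 2 of 7 mast cell markers, 4 of 10 markers of natural killer and T cells, 2 of 6 dendritic cell markers, 3 of 7 adaptors of lymphocyte receptors and 0 of 5 B cell markers. None of their tested members passed by limma, and 0 had an unadjusted p below 0.05. Median log2 differences were 0.07 for the neutrophil, -0.02 for the mast cell, 0.13 for the natural killer and T cell, -0.06 for the dendritic cell and 0.09 for the lymphocyte adaptor genes. Summed levels in Ctrl and BKO overlapped for each of these lists. The neutrophil sum was 1.46 to 2.72 FPKM in Ctrl and 1.86 to 3.75 FPKM in BKO, and the mast cell sum 5.26 to 7.63 and 5.50 to 7.04 FPKM. The sum for natural killer and T cells was 2.75 to 6.74 and 5.13 to 5.53 FPKM. The part of any of these cells in the results was not tested.

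Brown adipocyte markers were listed in full (9 of 9), so the labelled tissue was recognisable. None passed by limma, and 1 was higher and 1 lower at an unadjusted p below 0.05 (median 0.06). Ucp1, the uncoupling protein of brown fat, measured 2851 ± 562 and 2966 ± 19.7 FPKM, and Fabp4, the fatty acid binding protein of adipocytes, 10920 ± 413 and 11400 ± 947 FPKM (SD, n = 3 per group). Of 10 skeletal muscle markers 8 were listed, and 0 passed by limma or had an unadjusted p below 0.05 (median 0.04), although Acta1, skeletal muscle actin, ranged from 15.9 FPKM in Ctrl-2 to 106 FPKM in Ctrl-1.

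The genes whose levels followed the adaptors most closely over the 6 libraries were found by the root mean square difference of log2(FPKM + 1) values, each centred on its own mean. For Tyrobp these were Cd84, a receptor of leukocytes (0.0898), C1qb, a complement chain made by macrophages (0.110), Phgdh, the entry enzyme of serine synthesis (0.111), Ms4a7 (0.128) and Slc11a1, a metal transporter of phagosomes (0.143). On this scale Gp49a, at 0.112, was as near to Tyrobp as these, followed by Fcer1g at 0.158, Fcgr3 at 0.238 and Fcgr2b at 0.310. The scale compresses genes with low values. With a pseudocount of 0.1 the log2 difference was 1.98 for Gp49a, 1.25 for Tyrobp and 1.05 for Fcer1g. Distances at that pseudocount were not computed, so the order holds only for the scale used.

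For Fcer1g the nearest were Lcp1, an actin-bundling protein of leukocytes (0.107), H2-T22, a class I antigen gene (0.112), C1qc (0.116), Cd84 (0.128) and Cyba, a subunit of the phagocyte oxidase (0.130). Cd84 was thus among the nearest 5 of both adaptors. It measured 0.553, 0.262 and 0.180 FPKM in Ctrl, and 1.84, 1.74 and 1.47 FPKM in BKO. The BKO over Ctrl ratio of Cd84 was 5.07, against 2.37 for Tyrobp and 2.03 for Fcer1g, so its nearness rests on the scale. These distances describe 6 libraries that also differ by group, and no test was made of them.

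**Figure D4:**
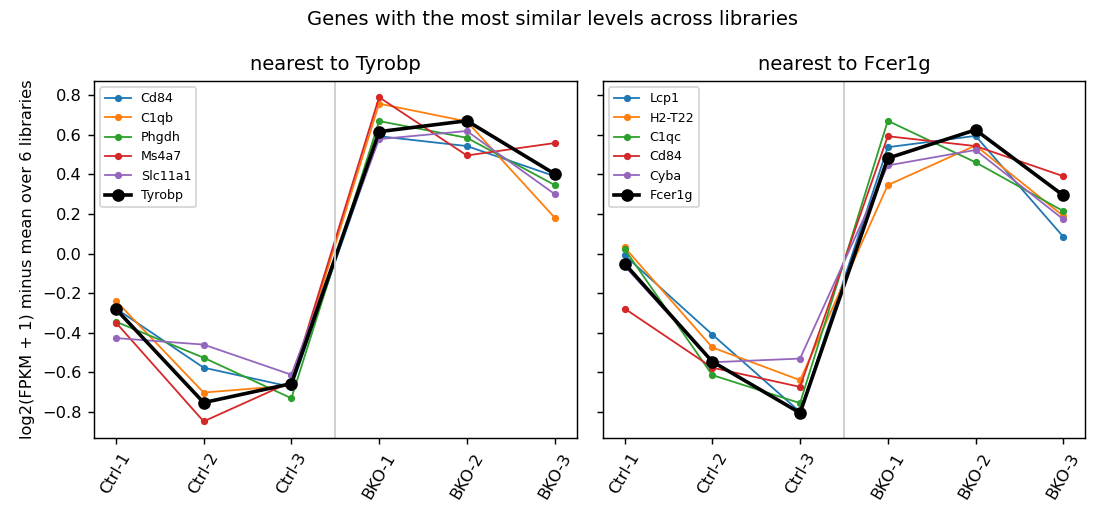
log2(FPKM + 1) minus its mean over the 6 libraries for Tyrobp (left, black) and Fcer1g (right, black) and the 5 genes nearest to each. Lines only link the points of 1 gene. In every gene shown the 3 BKO libraries lie above the 3 Ctrl libraries, and Ctrl-1 is the highest Ctrl library. The genes were chosen for nearness to the black lines over these libraries, so this likeness is not a separate result.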

How the data were processed

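RNA was sequenced in 6 libraries, and the authors deposited 1 table of FPKM per gene. The submitters' processing notes name CASAVA 1.8, TopHat2 2.0.12, Cufflinks 2.2.1 and the build NCBIM37, with no roles. Options, annotation and any listing filter were not given in the sources used here. Columns were assigned by the sample names in the labels, which call Ctrl libraries MT and BKO libraries WT, and Bscl2 was checked against them.

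Values were transformed as log2(FPKM + 1). Genes averaging 1 FPKM or more entered a limma fit (version 3.58.1, R 4.3.3) with a trend on level, no covariate, two-sided tests and Benjamini-Hochberg adjustment at 0.05 over all 11397 genes. The fit was tested on simulated data. With no read counts, no count model was used.

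The members and the 19 gene lists were chosen with earlier results of these data known. Named were all members, Bscl2, Lilrb4, Trem2 and Syk, up to 4 passing genes of each list, or its 2 most abundant genes where fewer than 2 passed, and the 5 genes nearest to each adaptor. Ptprc, Sfpi1, Irf8, Cd163, Fcrls, Clec12a, Inpp5d, Lat2, Nckap1l, Ighg2c and Lgals3 were named after their values were seen. A gene that the rule names is not reported here. Transcript windows were compared on GENCODE vM21 and promoters taken from RefSeq GRCm38.p6.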

Additional observations from a re-analysis of the deposited data

How the results depend on the processing

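The log2 differences of all 6 genes kept their sign under every alternative in which they had a value. With pseudocounts of 0.1 and 0.5 that of Gp49a was 1.98 and 1.57, and with 0.1 that of Fcgr3 was 1.11. Genes higher in BKO numbered 11 with no filter, 9 with a filter at 5 FPKM, and 5 to 30 with 1 library left out, where genes lower in BKO numbered 1 to 3. Without BKO-1 there were 5 higher genes and without BKO-3 there were 30. Fits with another filter test other genes and fits without a library have fewer samples, and beyond that the cause was not tested. Macrophage markers past the threshold numbered 1 with either pseudocount, with no filter or with a filter at 5 FPKM, and 0 to 4 with 1 library left out. Members of the inhibitory list numbered 0 to 1 there. Divided by the summed pan-leukocyte genes, a divisor chosen after seeing the data, the BKO over Ctrl ratio was 1.47 for Tyrobp, 1.31 for Fcer1g, 1.22 for Fcgr2b, 1.39 for Fcgr3, 0.742 for Fcgr4 and 2.74 for Gp49a. With Lyz2 left out of the macrophage sum, also chosen after seeing the data, it was 0.956 for Tyrobp and 0.834 for Fcer1g.

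The deviations of same-numbered libraries from their group means had correlations of 0.196, -0.104 and -0.100 over genes, so the numbers were not taken to pair the libraries, and Ctrl-1 was the only Ctrl library to correlate best with its own number. With a replicate block, 23 genes were higher and 2 lower, 6 macrophage markers passed, and Gp49a passed beside Tyrobp. Depth is unknown, and Fcgr4 and the receptors below 1 FPKM are the values it limits most.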
